A study of Mus musculus with 24 samples.

Results

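Glucocorticoid receptors and responsive genes were described in the hippocampus as a set of 10 genes out of the 19938 genes that the arrays measured with a probe of a single gene symbol. The 10 are given by name, chosen with earlier results of these data known, and all 10 were found: Nr3c1, Nr3c2, Fkbp5, Sgk1, Tsc22d3, Ddit4, Mt1, Mt2, Zbtb16 and Klf9, each with 1 probe. The 24 Affymetrix arrays hold RNA from male mice of 8 to 9 weeks on a C57BL/6J-129sv mixed background, in 4 groups of 6: FoxO6 mutant after learning, wild type (WT) after learning, FoxO6 mutant basal and WT basal. The mutants are labelled FoxO6 -/- and null. FoxO6 is a forkhead transcription factor, and the sources used here do not say how the allele was made. Basal mice had been housed singly for at least 3 days. Learning mice were handled daily and habituated to the empty arena for 10 min at 24 hours before the task, were brought to the procedure room 60 min ahead on both days, spent 10 min with a pair of matching new objects and were killed 60 min later. Housing, handling, transfer, the arena and the objects therefore cannot be told apart in a comparison of learning with basal mice. The labels do not say in which batches RNA was extracted or arrays were hybridised, so a batch that followed the state cannot be told apart from it either. Neither the time of day nor a hormone level is used here.

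Corticosterone, the main glucocorticoid of mice, binds a pair of nuclear receptors in the brain. The mineralocorticoid receptor, encoded by Nr3c2, has the higher affinity and is abundant in hippocampal neurons, and the glucocorticoid receptor, encoded by Nr3c1, is filled when the hormone rises with stress or the daily rhythm. Hormone-bound receptors enter the nucleus and bind glucocorticoid response elements, and the induced genes include feedback proteins, kinases, transcription factors and metal-binding proteins. Many of these genes also answer to other signals, such as metals, energy stress or neuronal activity.

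Values are log2 RMA expression, in which 1 unit is a doubling, and levels of different probes are not set against each other. A gene was called where limma gave an adjusted p (Benjamini and Hochberg, over all 19938 genes) under 0.05. Arrays of a group correlated at 0.991 to 0.997. Foxo6 itself checked the labels: it lay at 5.98 to 6.38 in mutant and 6.62 to 7.04 in WT mice after learning, and at 6.18 to 6.59 in mutant and 6.78 to 7.30 in WT mice at basal, with no overlap in either state. All 13 measured markers of hippocampal neurons had means (7.77 to 11.9) above the highest array median (6.30). Arrays of a group are labelled as biological replicates, and the labels do not tie each one to its own animal. The p values therefore reflect the spread between these arrays, which may be technical, and the number of arrays limits the precision. In dissected tissue, fewer cells of a type and less RNA per cell cannot be told apart.

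Mice taken after the task had higher RNA of Sgk1, Tsc22d3, Ddit4, Mt1 and Mt2 than basal mice, and lower RNA of Nr3c2 and Zbtb16, in both genotypes. In mutants 5 of the 10 genes were called higher and 2 lower, beside 22.6% and 18.7% of all genes (41.3% in either direction). In WT mice 6 were called higher and 2 lower, beside 25.1% and 18.2% of all genes (43.3% in either direction). With this share of all genes called, the size of a difference says more than its call. The median difference of the 10 genes was 0.36 in mutants and 0.34 in WT mice, beside 0.03 over all genes in each genotype. Of the 10, 5 lay wholly above and 2 wholly below the basal arrays in each genotype, where 10.9% of all genes lay wholly above and 11.8% wholly below in mutants and 13.8% and 11.4% in WT mice.

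**Figure D1:**
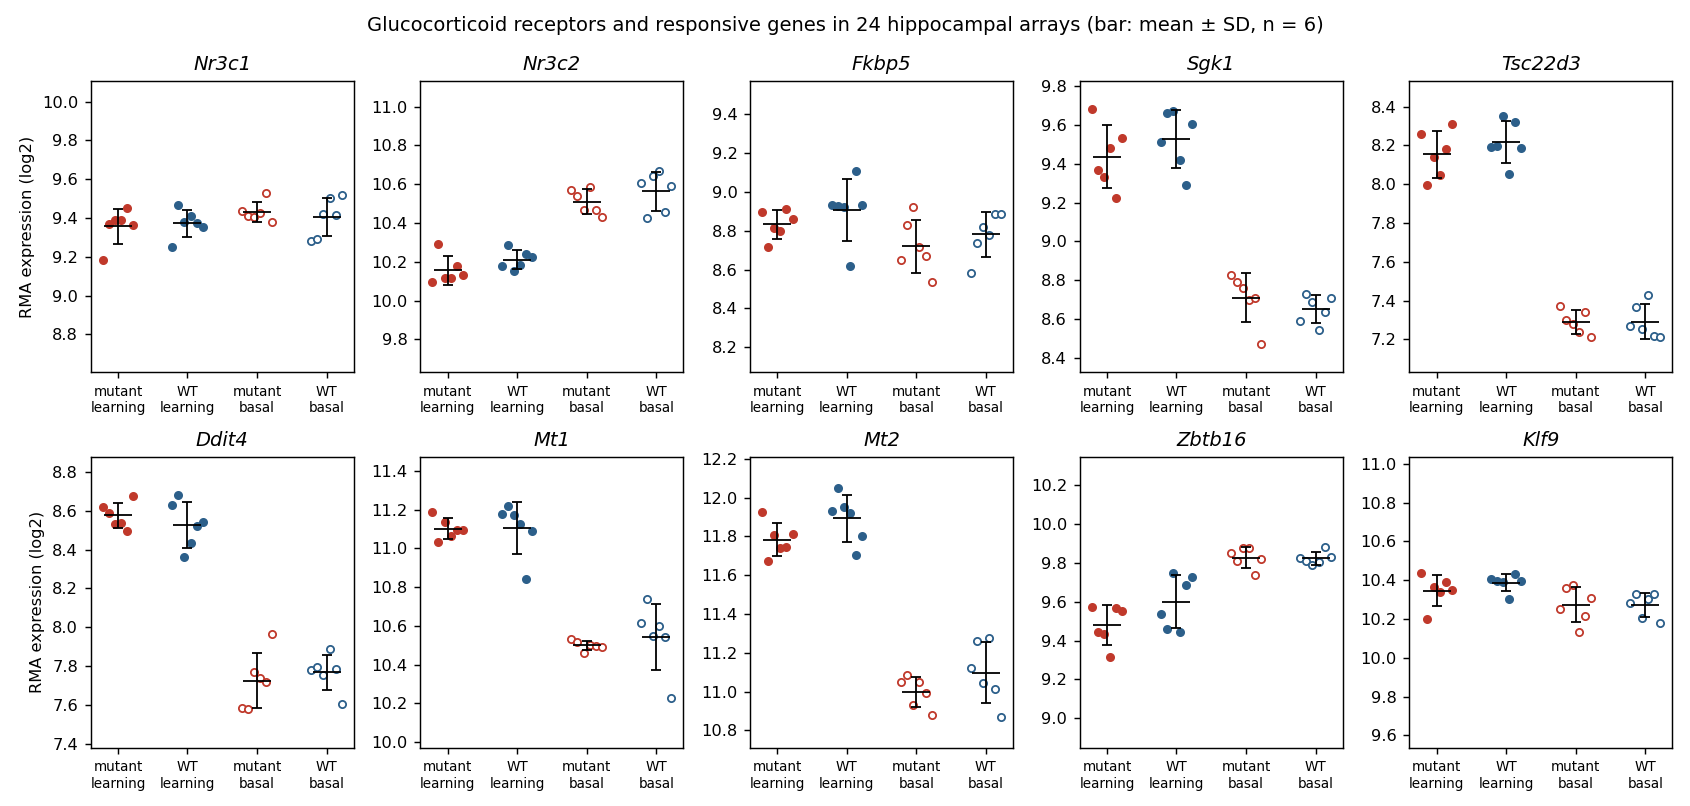
RMA expression (log2, y axis, 1.5 units high in every panel) of the 10 genes in each of the 24 arrays, by group (x axis). Filled points are arrays after learning and open points basal arrays, red for mutant and blue for WT; horizontal marks and bars are mean ± SD (n = 6). Sgk1, Tsc22d3, Ddit4, Mt1 and Mt2 lie higher and Nr3c2 and Zbtb16 lower after learning, with no overlap between the states within a genotype.

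The receptors differed from each other. Nr3c2 (chr8:76898083-77245012, GRCm38.p6) had a lowest, median and highest value of 10.09, 10.13 and 10.29 in mutants after learning, against 10.43, 10.50 and 10.59 in basal mutants. WT mice had 10.15, 10.20 and 10.29 after learning, against 10.42, 10.60 and 10.67 at basal. Every learning array of a genotype lay below every basal array of it. Nr3c2 fell by 0.35 in mutants (SE 0.0426, 95% interval −0.44 to −0.27, 0.782-fold, adjusted p = 5.25e-08 from limma) and by 0.35 in WT mice (SE 0.0426, −0.44 to −0.27, 0.783-fold, adjusted p = 5.62e-08). These falls stood 1360th from the lowest of 19938 genes in mutants and 1265th in WT mice, well inside the range of all genes.

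Nr3c1, on chromosome 18, was not called. It had 9.18, 9.38 and 9.45 in mutants after learning, against 9.38, 9.42 and 9.53 in basal mutants. WT values were 9.25, 9.38 and 9.46 after learning, against 9.28, 9.42 and 9.52 at basal, and the states overlapped in both genotypes. The differences were −0.07 in mutants (−0.17 to 0.02, adjusted p = 0.226 from limma) and −0.03 in WT mice (−0.13 to 0.06, adjusted p = 0.627), so that a fall to below 0.889-fold lay outside the interval in either genotype.

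Fkbp5 encodes a co-chaperone that lowers the hormone affinity of the glucocorticoid receptor and is itself induced by it (chr17:28398753-28486149). It had 8.72, 8.84 and 8.91 in mutants after learning, against 8.54, 8.69 and 8.92 in basal mutants. In WT mice it had 8.62, 8.93 and 9.11 after learning, against 8.58, 8.80 and 8.89 at basal. The groups overlapped, although 6 of 6 mutant and 5 of 6 WT learning arrays lay above the median of their basal group. The differences of 0.11 in mutants (SE 0.0668, −0.02 to 0.25, adjusted p = 0.19 from limma) and 0.13 in WT mice (SE 0.0668, −0.01 to 0.26, adjusted p = 0.133) were not called. Without WT learning array 4, the low array at 8.62, the WT difference was 0.18 and called (adjusted p = 0.0159). This was the only call among the 12 runs that each left out 1 WT array. They gave differences of 0.0857 to 0.184, with adjusted p up to 0.33 from limma.

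The 5 genes that rose in both genotypes are effectors, and some of their promoters hold letters of receptor or metal elements. RefSeq promoter windows (GRCm38.p6) were found for 8 of the 10 genes, 15 windows in all, and were searched in the 250 bases before each start, on both strands. The glucocorticoid response element was searched as AGAACA followed, after any 3 bases, by TGTTCT. An exact match stood in 3 of 32851 windows of this length (0.00913%), and 1 of the 3 belongs to Sgk1. It lies at chr10:21993701-21993715, 189 to 175 bases before 1 of the 6 annotated starts of Sgk1 and 965 bases before the most downstream of them. The hexamer AGAACA alone, a part of that element, stood in 4 of the 15 windows, 3 of Sgk1 and 1 of Tsc22d3, and in 16.1% of all windows. Shown are the Sgk1 window with the exact element (chr10:21993640-21993889, plus strand, both hexamers of the element in capitals), the Tsc22d3 window with the hexamer (chrX:140600523-140600772, minus strand, hexamer in capitals, here as its reverse complement TGTTCT) and the Mt2 window (chr8:94172368-94172617, plus strand), in which capitals mark cores of the metal response element, searched as TGCACNC and TGCGCNC. A further hexamer match in this Sgk1 window, 242 to 237 bases before the start, is left in lower case.
Sgk1: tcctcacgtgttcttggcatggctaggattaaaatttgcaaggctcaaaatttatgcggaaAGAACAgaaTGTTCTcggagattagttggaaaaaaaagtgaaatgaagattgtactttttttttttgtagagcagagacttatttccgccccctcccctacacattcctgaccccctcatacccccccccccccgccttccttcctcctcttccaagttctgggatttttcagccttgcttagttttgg
Tsc22d3: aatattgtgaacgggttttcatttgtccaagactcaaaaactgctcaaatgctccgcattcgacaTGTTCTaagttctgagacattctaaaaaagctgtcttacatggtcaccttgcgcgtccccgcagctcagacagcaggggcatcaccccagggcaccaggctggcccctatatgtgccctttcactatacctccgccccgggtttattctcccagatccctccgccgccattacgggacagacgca
Mt2: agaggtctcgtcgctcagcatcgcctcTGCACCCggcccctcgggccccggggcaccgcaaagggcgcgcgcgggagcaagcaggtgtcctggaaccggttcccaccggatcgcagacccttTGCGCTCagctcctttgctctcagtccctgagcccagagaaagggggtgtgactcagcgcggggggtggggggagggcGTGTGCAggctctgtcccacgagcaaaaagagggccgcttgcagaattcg

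The Mt2 window held 3 metal response cores, as did or exceeded 1.26% of all windows, and at least 1 core stood in 4 of the 15 windows (Nr3c2, Ddit4, Mt1 and Mt2) against 21.4% of all windows. With up to 2 mismatches, the glucocorticoid element stood in 2 Sgk1 windows and in 1.56% of all. The cyclic AMP response element TGACGTCA stood in 0 of the 15 windows and in 1.55% of all, and its shorter core TGACG in 4, of Sgk1, Tsc22d3, Mt1 and Klf9, against 17.8% of all. The TATA box TATAAA stood in 2 windows of Sgk1, against 12.4% of all. These matches describe the letters of the windows, and binding was not measured.

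Sgk1 encodes serum and glucocorticoid regulated kinase 1, which acts on ion channels and transporters and phosphorylates FoxO factors (chr10:21882184-21999903). It had 9.22, 9.42 and 9.68 in mutants after learning, against 8.47, 8.73 and 8.82 in basal mutants. In WT mice it had 9.29, 9.56 and 9.67 after learning, against 8.55, 8.66 and 8.73 at basal. All learning arrays lay above all basal arrays. Sgk1 rose by 0.73 in mutants (SE 0.0694, 95% interval 0.59 to 0.87, 1.66-fold, adjusted p = 6.93e-10 from limma) and by 0.88 in WT mice (SE 0.0694, 0.73 to 1.02, 1.84-fold, adjusted p = 1.7e-11). It stood 129th from the highest of all genes in mutants and 48th in WT mice.

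Tsc22d3 encodes GILZ, a leucine zipper protein that is a classic early target of the glucocorticoid receptor and restrains inflammatory transcription (chrX:140539528-140600522). It had 7.99, 8.16 and 8.31 in mutants after learning, against 7.21, 7.29 and 7.37 in basal mutants. WT values of the gene were 8.05, 8.19 and 8.35 after learning, against 7.21, 7.26 and 7.43 at basal. This was the largest rise among the 10 genes in both genotypes, and no arrays of the states overlapped. It was 0.86 in mutants (SE 0.059, 0.74 to 0.98, 1.82-fold, adjusted p = 8.11e-13 from limma, 57th from the highest) and 0.92 in WT mice (SE 0.059, 0.80 to 1.05, 1.90-fold, adjusted p = 2.15e-13, 34th).

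Ddit4 encodes REDD1, an inhibitor of mTOR complex signalling that answers to glucocorticoids and to energy or oxygen shortage (chr10:59949675-59951770). It had 8.50, 8.56 and 8.68 in mutants after learning, against 7.58, 7.73 and 7.97 in basal mutants. In WT mice it had 8.36, 8.53 and 8.68 after learning, against 7.60, 7.78 and 7.89 at basal, and again no arrays overlapped between the states. Ddit4 rose by 0.85 in mutants (SE 0.0621, 0.72 to 0.98, 1.80-fold, adjusted p = 3.17e-12 from limma, 63rd from the highest) and by 0.76 in WT mice (SE 0.0621, 0.63 to 0.89, 1.69-fold, adjusted p = 3.23e-11, 119th).

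Mt1 and Mt2 encode metallothioneins, small cysteine-rich proteins that bind zinc and copper, and lie 5315 bases apart on chromosome 8 (Mt2 at 94172618 to 94173567 and Mt1 at 94178883 to 94180327). Mt2 had 11.67, 11.78 and 11.92 in mutants after learning, against 10.88, 11.02 and 11.08 in basal mutants, and 11.70, 11.93 and 12.05 in WT mice after learning, against 10.87, 11.08 and 11.27 at basal. Mt1 had 11.03, 11.09 and 11.19 in mutants after learning, against 10.46, 10.50 and 10.53 in basal mutants, and 10.84, 11.15 and 11.22 in WT mice after learning, against 10.23, 10.57 and 10.74 at basal. Neither gene overlapped between the states in either genotype. Mt2 rose by 0.79 in mutants (SE 0.0586, 1.72-fold, adjusted p = 5.04e-12 from limma, 90th from the highest) and by 0.79 in WT mice (SE 0.0586, 1.73-fold, adjusted p = 4.2e-12, 93rd). Mt1 rose by 0.60 in mutants (SE 0.0584, 1.52-fold, adjusted p = 9.85e-10, 320th) and by 0.56 in WT mice (SE 0.0584, 1.47-fold, adjusted p = 4.13e-09, 499th). The metallothioneins are similar in sequence, and whether their probes take up each other's RNA was not tested. Their paralog Mt3, the brain metallothionein on the same list of paralogs, fell by 0.28 in mutants (adjusted p = 3.93e-06) and by 0.19 in WT mice (adjusted p = 0.000568).

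Zbtb16 encodes PLZF, a zinc finger repressor that glucocorticoids strongly induce in other tissues (chr9:48651797-48836225), and it was lower after learning. It had 9.31, 9.50 and 9.58 in mutants after learning, against 9.74, 9.83 and 9.88 in basal mutants. Among WT mice the values were 9.45, 9.61 and 9.75 after learning, against 9.79, 9.82 and 9.88 at basal, and the states did not overlap. Zbtb16 fell by 0.35 in mutants (SE 0.0508, −0.45 to −0.24, 0.786-fold, adjusted p = 1.53e-06 from limma) and by 0.22 in WT mice (SE 0.0508, −0.33 to −0.12, 0.857-fold, adjusted p = 0.000621). Its falls stood 1426th from the lowest of 19938 genes in mutants and 2700th in WT mice, well inside the range of all genes.

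Klf9 encodes a zinc finger transcription factor that glucocorticoids and thyroid hormone induce (chr19:23141226-23168129). It had 10.20, 10.36 and 10.44 in mutants after learning, against 10.14, 10.28 and 10.37 in basal mutants. In WT mice it had 10.30, 10.40 and 10.43 after learning, against 10.18, 10.29 and 10.33 at basal, and the states overlapped in both genotypes. The difference was 0.07 in mutants (SE 0.0417, −0.01 to 0.16, adjusted p = 0.167 from limma) and 0.12 in WT mice (SE 0.0417, 0.03 to 0.20, 1.08-fold, adjusted p = 0.0246, higher than the basal median in 6 of 6 arrays). The WT call was lost when basal array 3 (adjusted p = 0.0619), basal array 6 (0.0644) or learning array 5 (0.0523) of that genotype was left out, and a call appeared in mutants without mutant learning array 2 (adjusted p = 0.0439). The WT difference stood 6773rd from the highest of all genes.

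An exact permutation test (two-sided, all 924 ways to divide the 12 arrays of a genotype evenly) gave the smallest p it can give, 0.00216, without adjustment, for Nr3c2, Sgk1, Tsc22d3, Ddit4, Mt1, Mt2 and Zbtb16 in each genotype. It gave 0.169 in mutants and 0.00649 in WT mice for Klf9, 0.108 and 0.156 for Fkbp5, and 0.0909 and 0.535 for Nr3c1.

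**Figure D2:**
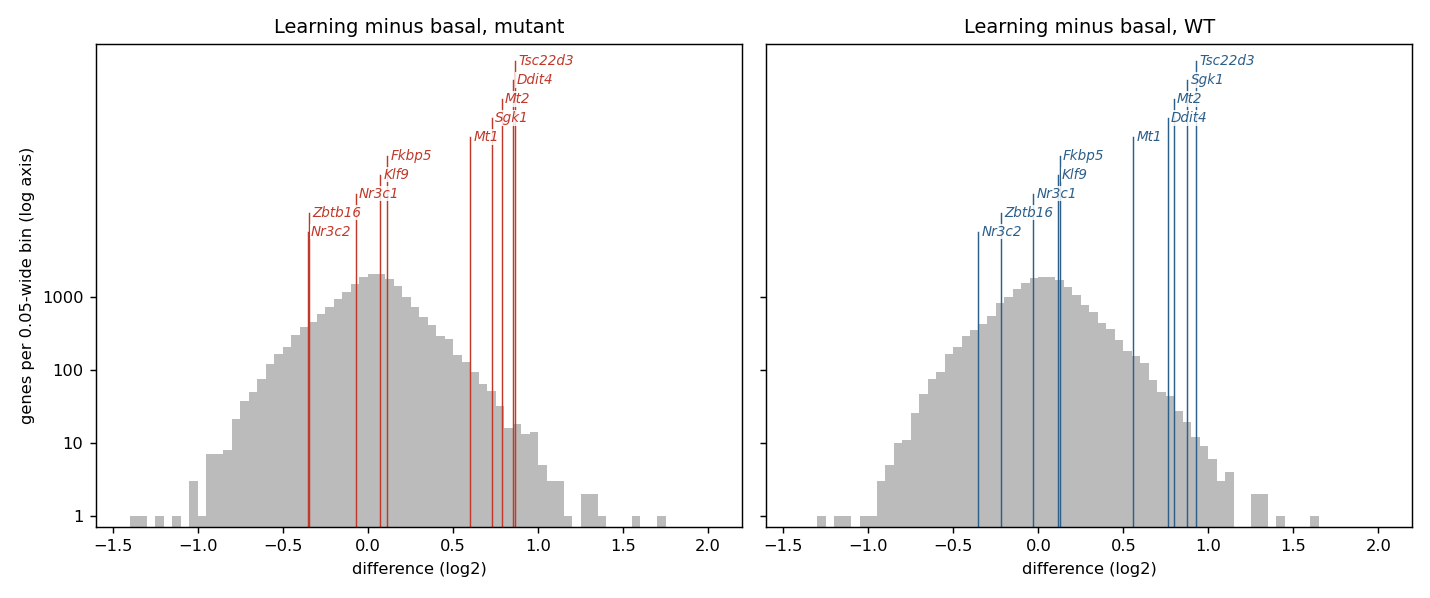
Differences between learning and basal mice (log2, x axis) of all 19938 genes in mutants (left) and WT mice (right), as numbers of genes per bin 0.05 wide (log y axis); lines mark the 10 genes, and line heights only separate the names. Tsc22d3, Sgk1, Ddit4, Mt2 and Mt1 stand in the upper tail in both genotypes, while Nr3c1, Klf9 and Fkbp5 stand in the body.

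Loss of FoxO6 was not seen to change the level of any of the 10 genes. In mutants against WT mice 0 of the 10 were called after learning, where 0.0752% of all genes were called, 0 at basal, where 0.1% were called, and 0 over both states together, where 0.391% were called. Each comparison has few called genes in all, so that a count of 0 among 10 is near the background. At an unadjusted p under 0.05 from limma, 1 of the 10 differed after learning (Zbtb16), 0 at basal and 1 over both states (Mt2). The per-gene differences ran from −0.12 to 0.05 after learning, from −0.10 to 0.06 at basal and from −0.10 to 0.01 over both states, and mutant and WT arrays overlapped for every gene in both states.

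For the 7 genes called in both genotypes, the group levels were ordered by state. Within a state no genotype difference of the 10 genes was called. For Sgk1 the difference of mutant from WT was −0.09 after learning (95% interval −0.23 to 0.05) and 0.06 at basal (−0.08 to 0.20). For Tsc22d3 it was −0.06 (−0.18 to 0.06) after learning and −0.00 (−0.12 to 0.12) at basal, and for Ddit4 it was 0.05 (−0.08 to 0.17) and −0.04 (−0.17 to 0.08). A p over the threshold does not show that the genotypes are alike.

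The receptors gave −0.06 (−0.14 to 0.03) after learning and −0.05 (−0.14 to 0.03) at basal for Nr3c2, and −0.02 (−0.11 to 0.08) and 0.03 (−0.07 to 0.12) for Nr3c1. For Fkbp5 the values were −0.07 (−0.21 to 0.06) after learning and −0.06 (−0.20 to 0.08) at basal, and for Klf9 −0.04 (−0.13 to 0.04) and 0.00 (−0.08 to 0.09). Mt2 stood lower in mutants in both states, by −0.11 (−0.23 to 0.01) after learning, where 0 of 6 mutant arrays lay above the WT median, and by −0.10 (−0.22 to 0.02) at basal, where 1 of 6 did. Over both states its difference was −0.10 (SE 0.0415, −0.19 to −0.02, unadjusted p = 0.0172 and adjusted p = 0.434 from limma), which was not called. Mt1, its neighbour, gave −0.00 (−0.12 to 0.12) after learning and −0.05 (−0.17 to 0.07) at basal.

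Zbtb16 was the member with the smallest p after learning. It had 9.31 to 9.58 in mutants against 9.45 to 9.75 in WT mice, a difference of −0.12 (SE 0.0508, −0.23 to −0.02, unadjusted p = 0.0242 and adjusted p = 0.60 from limma; the exact permutation test gave p = 0.115, unadjusted). At basal the difference was 0.00 (−0.10 to 0.11).

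**Figure D3:**
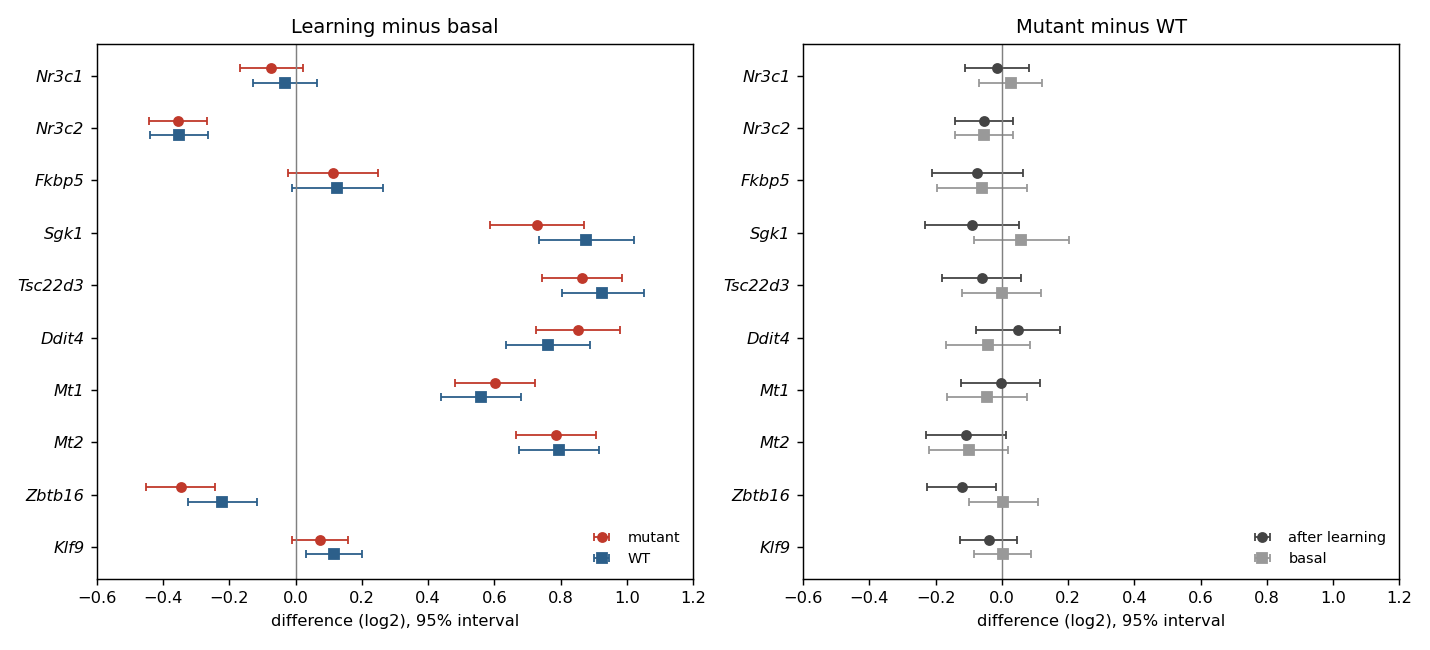
Differences of the 10 genes (log2, points) with 95% intervals from limma: learning minus basal at left, for mutant (red circles) and WT mice (blue squares), and mutant minus WT at right, after learning (dark circles) and at basal (grey squares), on the same scale. The learning differences reach 0.92 in size, while those between genotypes stay within 0.12 of 0.

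Whether the change after the task depended on genotype was asked of the interaction, the mutant change minus the WT change. It was called for 0 of the 10 genes and 0 of all 19938 (0%), and 0 of the 10 and 510 of all genes had an unadjusted p under 0.05 from limma. The largest in size was that of Sgk1, −0.15 (95% interval −0.35 to 0.05, unadjusted p = 0.138), followed by Zbtb16 at −0.13 (−0.27 to 0.02, unadjusted p = 0.0921) and Ddit4 at 0.09 (−0.09 to 0.27, unadjusted p = 0.312). Tsc22d3 gave −0.06 (−0.23 to 0.11), Klf9 −0.04 (−0.16 to 0.08), Mt1 0.04 (−0.13 to 0.21), Nr3c1 −0.04 (−0.18 to 0.09), Fkbp5 −0.01 (−0.21 to 0.18), Mt2 −0.01 (−0.18 to 0.16) and Nr3c2 −0.00 (−0.12 to 0.12).

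The rest of the pathway was read from 6 lists with 97 other genes, of which 90 were measured. After the task 32 rose and 18 fell in mutants, beside 22.6% and 18.7% of all genes, and 28 rose and 20 fell in WT mice, beside 25.1% and 18.2%, with a median difference of 0.04 in each genotype beside 0.03 over all genes. Between genotypes 0 of the 90 were called after learning, at basal or over both states, and 0 for the interaction.

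Among 28 other glucocorticoid-responsive genes, 20 rose and 2 fell in mutants (median 0.28) and 16 rose and 2 fell in WT mice (median 0.28). Of all genes, 22.6% rose in mutants and 25.1% in WT mice, with a median of 0.03 in each. The same 16 rose and the same 2 fell in both genotypes. Tiparp, a mono-ADP-ribosyltransferase of the dioxin receptor pathway, was 8.20 ± 0.09 after learning against 7.33 ± 0.04 at basal in mutants, and 8.22 ± 0.13 against 7.38 ± 0.13 in WT mice (SD, n = 6 each). It rose by 0.88 in mutants (adjusted p = 1.84e-12 from limma) and 0.84 in WT mice (adjusted p = 4.6e-12). Nfkbia, the inhibitor of NF-kappaB, rose by 0.67 in mutants (adjusted p = 1.34e-09) and 0.62 in WT mice (adjusted p = 6.43e-09), and Gadd45g, a growth arrest and stress gene, by 0.67 (adjusted p = 4.1e-10) and 0.62 (adjusted p = 1.76e-09). Rhob, a small GTPase, fell by 0.33 in mutants (adjusted p = 9.97e-09) and by 0.35 in WT mice (adjusted p = 5.52e-09), and Gpd1, a glycerol phosphate dehydrogenase, by 0.18 (adjusted p = 0.00726) and 0.20 (adjusted p = 0.00374).

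Beside these, 9 of 10 activity-induced genes, such as Fos, rose in each genotype (median 0.63 in mutants and 0.59 in WT mice). Of all genes, 22.6% rose in mutants and 25.1% in WT mice. The lists share Dusp1, a phosphatase of MAP kinases, which rose by 0.40 in each genotype (adjusted p = 2.78e-05 in mutants and 2.84e-05 in WT mice). Fos stood at 8.05 to 8.36 in mutants and 7.83 to 8.42 in WT mice after learning, against 6.17 to 6.63 in mutants and 6.00 to 6.66 in WT mice at basal. The mean of the 10 activity-induced genes lay at 7.96 to 8.15 in mutants and 7.99 to 8.29 in WT mice after learning. At basal this mean lay at 7.27 to 7.44 and 7.19 to 7.56. The part of neuronal activity in the change of the glucocorticoid-responsive genes was not tested.

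Of 17 chaperones and coregulators of the receptors, 4 rose and 7 fell in mutants (median −0.10) and 4 rose and 8 fell in WT mice (median −0.09). Over all genes, 22.6% rose and 18.7% fell in mutants, and 25.1% rose and 18.2% fell in WT mice. The chaperones and co-chaperones of the receptor complex went in both directions. Hspa8 was called higher in both genotypes (0.09 in WT mice, adjusted p = 0.0272 from limma). Hsp90aa1 rose by 0.25 in mutants (adjusted p = 3.77e-07 from limma) and by 0.25 in WT mice (adjusted p = 4.16e-07), Ppid, an immunophilin, by 0.45 (adjusted p = 3.99e-07) and 0.46 (adjusted p = 2.67e-07), and Ptges3, the p23 co-chaperone, by 0.20 (adjusted p = 0.00747) and 0.18 (adjusted p = 0.0127). Fkbp4, the co-chaperone FKBP52, fell by 0.26 in mutants (adjusted p = 0.000489) and 0.21 in WT mice (adjusted p = 0.00377), and Stip1 and Bag1 were not called in either genotype. Stub1, a co-chaperone, was called lower in mutants and gave −0.09 in WT mice (adjusted p = 0.0795 from limma). Fkbp4, Hspa8, Stip1, Bag1 and Stub1 were named after their values were seen, and Fkbp4 also stands on the list of paralogs. The acetyltransferase coactivator Crebbp fell by 0.44 in mutants (adjusted p = 4.1e-09) and 0.45 in WT mice (adjusted p = 2.89e-09), and its relative Ep300 by 0.38 (adjusted p = 2.71e-06) and 0.37 (adjusted p = 4.68e-06). Ywhah, a 14-3-3 protein, fell by 0.20 (adjusted p = 3.18e-07) and 0.16 (adjusted p = 1.25e-05).

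Of 11 genes of steroid metabolism and transport, 2 rose and 1 fell in mutants (median 0.04) and 2 rose and 0 fell in WT mice (median 0.08). Calls in either direction covered 41.3% of all genes in mutants and 43.3% in WT mice. Hsd11b1, which regenerates active glucocorticoid inside cells, was 7.94 ± 0.18 after learning against 7.56 ± 0.125 at basal in mutants, and 7.73 ± 0.21 against 7.41 ± 0.17 in WT mice (SD, n = 6 each). It rose by 0.38 in mutants (adjusted p = 0.00119 from limma) and by 0.32 in WT mice (adjusted p = 0.00504). Abcb1a, the efflux pump of the blood-brain barrier, rose by 0.16 in mutants (adjusted p = 0.0407) and 0.30 in WT mice (adjusted p = 0.000192). Cyp11a1, the side-chain cleavage enzyme, fell by 0.28 in mutants (adjusted p = 0.00635) and gave −0.10 in WT mice (adjusted p = 0.337). Its mutant means, 5.30 after learning and 5.58 at basal, lie below every array median.

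Of 13 genes of the corticotropin-releasing hormone (CRH) system, 3 rose and 1 fell in each genotype (median −0.01 in mutants and −0.08 in WT mice). The share of all genes called in either direction was 41.3% in mutants and 43.3% in WT mice. Crh, the stress peptide itself, was 6.24 ± 0.11 after learning against 5.69 ± 0.17 at basal in mutants, and 6.10 ± 0.24 against 5.57 ± 0.07 in WT mice (SD, n = 6 each), a rise of 0.55 (adjusted p = 8.67e-06 from limma) and 0.53 (adjusted p = 1.72e-05). Both basal means and the WT learning mean lie below the lowest array median (6.16), so the size of this rise is uncertain. Its binding protein Crhbp rose by 0.39 in mutants (adjusted p = 0.000997) and 0.55 in WT mice (adjusted p = 1.46e-05). Its receptor Crhr1 fell by 0.24 in mutants (adjusted p = 0.000107) and 0.32 in WT mice (adjusted p = 1.79e-06). Mc2r, the corticotropin receptor of the adrenal, rose by 0.26 (adjusted p = 0.00313) and 0.17 (adjusted p = 0.0422), with group means of 4.18 to 4.44 that lie below every array median.

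Of 7 other steroid receptors, 1 rose and 2 fell in mutants (median −0.10) and 1 rose and 3 fell in WT mice (median −0.05). Across all genes, 41.3% were called in mutants and 43.3% in WT mice. Pgr, the progesterone receptor, rose by 0.27 in mutants (adjusted p = 0.00369 from limma) and 0.52 in WT mice (adjusted p = 1.15e-06), and its interaction of −0.25 had an unadjusted p of 0.0264 and was not called. The orphan receptors Esrra and Esrrg fell by 0.14 and 0.20 in mutants (adjusted p = 0.0137 and 0.0107) and by 0.17 and 0.16 in WT mice (adjusted p = 0.00267 and 0.0375). The estrogen-binding receptor Gper1 gave −0.10 in mutants (adjusted p = 0.322 from limma) and fell by 0.21 in WT mice (adjusted p = 0.0241). Its WT mean was 6.34 at basal and 6.132 after learning, the latter below every array median.

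Of 15 paralogs of the 10 genes, 2 rose and 6 fell in mutants (median −0.06) and 2 rose and 7 fell in WT mice (median −0.12). Among all genes, 22.6% rose and 18.7% fell in mutants, and 25.1% rose and 18.2% fell in WT mice. Klf10 rose by 0.61 in mutants (adjusted p = 2.67e-06 from limma) and 0.46 in WT mice (adjusted p = 0.000119), and Sgk3 by 0.24 (adjusted p = 0.0049) and 0.27 (adjusted p = 0.00167). Tsc22d1 fell by 0.24 in mutants (adjusted p = 1.89e-06) and 0.19 in WT mice (adjusted p = 5.3e-05), and Tsc22d4 fell by 0.24 (adjusted p = 0.000328) and 0.22 (adjusted p = 0.000992). Klf13 fell by 0.28 (adjusted p = 0.00047 from limma) and 0.29 (adjusted p = 0.000227). Sgk2 gave −0.09 in mutants (adjusted p = 0.365) and fell by 0.35 in WT mice (adjusted p = 0.000327). The WT means of Sgk2, 5.732 after learning and 6.085 at basal, lie below every array median.

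**Figure D4:**
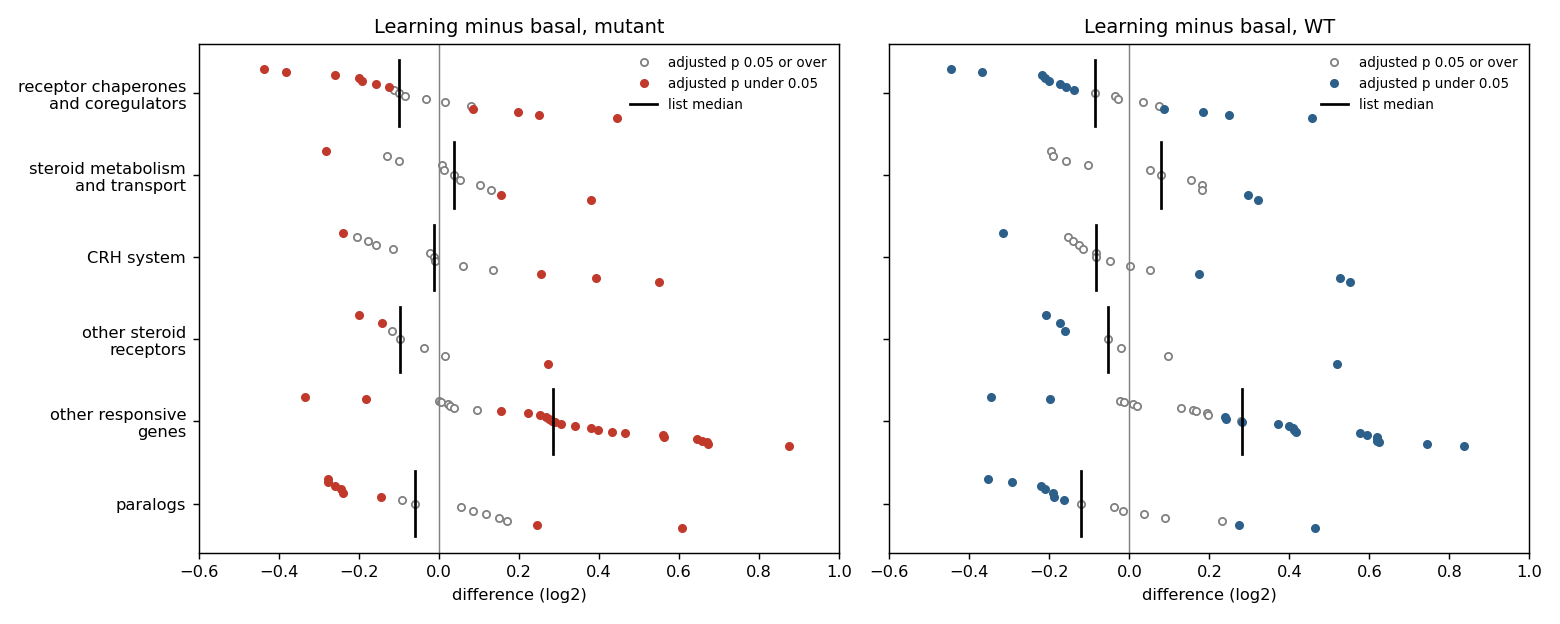
Difference between learning and basal mice (log2, x axis) of each measured gene of the 6 pathway lists (rows), in mutants (left) and WT mice (right). Filled points passed an adjusted p under 0.05, open points did not, vertical offsets only separate points, and black lines are list medians. The other glucocorticoid-responsive genes have a median of 0.28 in each genotype, and the other 5 lists have medians between −0.12 and 0.08.

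Some markers of other cell types were also called between the states. Of all genes, 22.6% rose and 18.7% fell in mutants, and 25.1% rose and 18.2% fell in WT mice. Of 13 choroid plexus markers, 0 rose and 5 fell in mutants (median −0.27) and 0 rose and 1 fell in WT mice (median −0.24). Their mean lay at 6.05 to 6.97 in mutants and 6.11 to 6.36 in WT mice after learning, against 6.56 to 7.06 in mutants and 5.99 to 7.04 in WT mice at basal. Between mutants and WT mice 0 of the 13 were called, with a median difference of 0.16 after learning and 0.235 at basal, and all 13 lay higher in mutants in both states (by at least 0.0623 and 0.106). Ttr, the transthyretin gene, stood at 11.65, 12.11 and 11.81 in WT basal arrays 1, 2 and 3 and at 8.80, 9.64 and 9.17 in arrays 4, 5 and 6. Basal mutants had Ttr at 11.01 to 11.99, so among the WT basal arrays only 4, 5 and 6 lay below all of them. After learning, Ttr stood at 8.59 to 11.65 in mutants and at 8.46 to 10.20 in WT mice. With arrays 4, 5 and 6 left out, a choice made after seeing the data, the WT rises of Sgk1, Tsc22d3, Ddit4, Mt1 and Mt2 were 0.86, 0.92, 0.75, 0.47 and 0.75, and with arrays 1, 2 and 3 left out they were 0.90, 0.93, 0.77, 0.65 and 0.84, all called. The count of called genes was 7 each time, without Klf9 (adjusted p = 0.0833 and 0.0881).

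Beside 41.3% of all genes called in mutants and 43.3% in WT mice, other marker lists gave the counts that follow. Of 10 astrocyte markers, 1 rose and 7 fell in mutants and 2 rose and 6 fell in WT mice. Their mean lay at 9.95 to 10.11 in mutants and 10.02 to 10.12 in WT mice after learning, against 10.05 to 10.24 and 10.06 to 10.18 at basal, overlapping between the states. Of 14 endothelial and mural markers, 3 rose and 5 fell in mutants and 3 and 3 in WT mice, with means of 7.89 to 8.05 in mutants and 7.97 to 8.12 in WT mice after learning against 8.03 to 8.17 and 7.97 to 8.07 at basal. Cldn5, an endothelial tight junction gene, stood at 8.06 to 8.40 in mutants and 8.23 to 8.57 in WT mice after learning. At basal it stood at 8.72 to 9.11 and 8.75 to 9.02, without overlap between the states. The differences of the 14 endothelial and mural markers ran from −0.652 to 0.417 in mutants and from −0.463 to 0.528 in WT mice.

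The next counts also stand beside 41.3% of all genes called in mutants and 43.3% in WT mice. Of 9 oligodendrocyte markers, 3 rose and 3 fell in mutants and 2 and 3 in WT mice, and of 9 microglia markers, 3 rose and 2 fell in mutants and 4 and 1 in WT mice. Their means overlapped between the states, at 9.68 to 9.88 after learning against 9.63 to 9.85 at basal for oligodendrocytes and at 7.49 to 7.80 against 7.42 to 7.65 for microglia. Of 13 markers of hippocampal neurons, 1 rose and 7 fell in mutants and 2 and 7 in WT mice. Their mean lay at 9.08 to 9.13 in mutants and 9.04 to 9.21 in WT mice after learning, against 9.15 to 9.31 and 9.21 to 9.44 at basal, beside the fall of Nr3c2. Between genotypes, Fibcd1, a marker of CA1 neurons, was lower in mutants after learning (−0.35, adjusted p = 0.00226) and at basal (−0.34, adjusted p = 0.00563). Over both states 3 of the 13 were lower: Fibcd1, C1ql2 and Prox1. Of all genes, 0.0752% were called after learning, 0.1% at basal and 0.391% over both states. The 13 genotype differences ran from −0.349 to 0.153 after learning (median 0.03) and from −0.337 to 0.175 at basal (median −0.002). Wfs1, on the same list, gave 0.14 after learning and 0.16 at basal and was not called. These 4 genes were named after their values were seen. Of 5 blood markers 1 was measured and it was not called. The part of these cell types in the change of the 10 genes was not tested.

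Over the 24 arrays, taken as deviations from the group mean, the 45 pairs of genes had a median Pearson r of 0.02 (−0.50 to 0.85). Mt1 and Mt2 had the highest, r = 0.85 (rho = 0.85), and r = 0.80 without the 2 arrays farthest from the median. Tsc22d3 and Zbtb16 followed at r = 0.51 (rho = 0.45), and these were the 2 pairs over 0.5. Next came Tsc22d3 with Klf9 (r = 0.48) and Fkbp5 with Zbtb16 (r = 0.47), and the lowest was Nr3c2 with Klf9 (r = −0.50, rho = −0.46, and r = −0.33 without the 2 farthest arrays). The arrays share dissection and normalization, and the values are descriptive.

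By the same measure over 9968 genes of above-median level, Mt2 was the gene most like Mt1, and Mt1 the gene most like Mt2. After it came Snord57 (r = 0.84) and Snord55 (0.83) for Mt1, and Snord104 (0.75) and Cep19 (0.74) for Mt2, of which the Snord genes are small nucleolar RNAs. Nearest to Sgk1 were Cdc34 (0.65), Mcrip2 (0.59) and Snord104 (0.59), and nearest to Tsc22d3 were Lcmt1 (0.72), Rnf185 (0.70) and Cluap1 (0.69), with 0 of the other 9 genes among them. Nearest to Ddit4 were Pxmp4 (0.82), Pard3 (0.69) and Metrn (0.67), to Fkbp5 Hexim1 (0.76), Adgra3 (0.75) and Dpysl3 (0.75), and to Klf9 Dctn1 (0.85), Adcy3 (0.80) and Ss18 (0.74). Nearest to Zbtb16 were Slk (0.81), Tln2 (0.72) and Fry (0.70), to Nr3c2 Med12l (0.84), Brwd1 (0.83) and Sox11 (0.78), and to Nr3c1 4933434E20Rik (0.82), Gabarapl2 (0.80) and Slco1a4 (0.80).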

How the data were processed

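Per the submitters' processing notes the authors used RMA, and the deposited values, for 24 arrays and 35511 probes, are on the log2 scale. Its version and the chip definition are unstated in the sources used here. The values were used as deposited. Of the probes, 21789 carried 1 gene symbol in the platform annotation, 1621 several and 12101 none; for each gene with several such probes (999 genes) the one with the highest mean was kept, which left 19938 genes. In R 4.3.3, limma 3.58.1 fitted 1 mean per group over all 24 arrays (20 residual degrees of freedom), with eBayes and a mean-variance trend (29 in all); tests are two-sided, with Benjamini-Hochberg adjustment across the 19938 genes, and called under 0.05. The fit was tested on simulated data. The gene set, lists and tests were chosen with earlier results of these data known. The text names all 10 genes, from each pathway list up to 3 called genes per direction with the smallest p, and for each gene the 3 genes most like it. Lists hold choroid plexus, endothelial and mural, astrocyte, oligodendrocyte, microglia, hippocampal neuron, blood and activity-induced genes beside the pathway lists. Promoters come from RefSeq (GRCm38.p6). Alternatives changed the scaling, the eBayes trend, the arrays in the model, array weights, the probes, a filter on dim genes, the replicate block and each array. Replicate numbers pair no samples by the labels: deviations of same-numbered arrays correlated at −0.296 to 0.263.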

Additional observations from a re-analysis of the deposited data

Results flagged for a closer look

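Of 40 sets of 6 arrays (10 genes in 4 groups), 5 had a lowest value whose gap to the nearest array, as a share of the range of the group, passed Dixon's critical value, where chance gives about 1 in 20. In mutants after learning, array 1 had the lowest Nr3c1, 9.18, with the next at 9.36. In WT mice after learning, array 4 had the lowest Fkbp5, 8.62 (next 8.93), and also the lowest Klf9, 10.30 (next 10.39), and array 5 had the lowest Mt1, 10.84 (next 11.09). In basal mutants, array 6 had the lowest Sgk1, 8.47 (next 8.70). All 5 are low values.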

How the results depend on the processing

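The number of the 10 genes called between states was 7 to 9 in WT mice and 7 to 8 in mutants when each array was left out in turn, and 0 between genotypes and for the interaction each time. With the replicate number as a block the counts were 8 in WT mice, 7 in mutants and 0 in the 4 other comparisons, so the block changed none of these counts; the numbers do not pair the arrays. The WT call of Klf9 (0.12) was lost after a second quantile normalization (0.0782, adjusted p = 0.129 from limma). Sign changes touched only differences that were not called, and their cause was not tested. For mutant minus WT at basal, Klf9 gave −0.00132 with arrays centred, −0.00154 after quantile normalization and −0.0107 with array weights, Zbtb16 −0.0048 after quantile normalization and Tsc22d3 0.00564 with array weights. For mutant minus WT after learning, quantile normalization gave 0.0034 for Nr3c1 and 0.00207 for Mt1. Over both states Ddit4 gave −0.00625 with array weights. For the interaction, Nr3c2 gave 0.00489 with arrays centred and 0.0184 after quantile normalization, Fkbp5 0.00787 after quantile normalization and Mt2 0.00511 with array weights. Leaving out WT basal arrays 4, 5 and 6, chosen after seeing the data, gave 0.00784 for Fkbp5 at basal, −0.0022 for Ddit4 over both states, 0.0401 for Nr3c1 between states in WT mice and 0.0361 for the interaction of Mt2. Leaving out WT basal arrays 1, 2 and 3 gave −0.0459 for Nr3c1, 0.00382 for Tsc22d3, 0.044 for Mt1 and −0.012 for Zbtb16 at basal, −0.0307 for Nr3c1 and 0.0202 for Mt1 over both states, and interactions of 0.0304 for Nr3c1, 0.0056 for Nr3c2, 0.0545 for Fkbp5 and −0.0475 for Mt1. With single arrays left out, mutant minus WT at basal ran from −0.0176 to 0.0267 for Tsc22d3, −0.00556 to 0.0221 for Zbtb16 and −0.0179 to 0.0296 for Klf9. After learning it ran from −0.0397 to 0.0194 for Nr3c1 and −0.0556 to 0.0189 for Mt1, and over both states from −0.0069 to 0.0227 for Nr3c1, −0.0404 to 0.00786 for Sgk1 and −0.0216 to 0.0179 for Ddit4. The interaction ran from −0.029 to 0.0264 for Nr3c2, −0.0717 to 0.0263 for Fkbp5, −0.0106 to 0.105 for Mt1 and −0.0468 to 0.0367 for Mt2. A fit to the compared groups alone was not run for the interaction and for both states, which use all arrays.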
